A study of Mus musculus with 10 samples.

Results

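Cxcr3 encodes the chemokine receptor CXCR3, Cxcl9 and Cxcl10 encode interferon-induced ligands of it, and Cxcl11 is the gene of a further such ligand. Expression of these genes was followed in tumour-associated macrophages of mice. The 4 genes were chosen by name, as the receptor and its ligands, out of 36528 gene identifiers in the count tables. This choice, the gene lists and the tests were made with earlier results of these data known. The macrophages were purified from MC-38 tumours, which grow from a mouse colon carcinoma line, in mice of strain C57Bl/6. One group had received anti-MerTK, an antibody against a receptor tyrosine kinase through which macrophages take up dying cells (5 libraries), and the other had received anti-gp120, an antibody against an HIV envelope protein that mice do not make (5 libraries). Both groups carried the same tumour and were taken 24 h after treatment, and polyadenylated RNA was sequenced. How the cells were sorted, the age of the mice and whether the libraries came from separate mice are not in the labels, so the p-values speak of the spread among these libraries, part or all of which may be technical.

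CXCR3 is a G protein-coupled receptor known mainly from activated T cells and NK cells, which it guides towards sites where its ligands are made. In tumours, macrophages and dendritic cells are known sources of these ligands. CXCL9 is induced chiefly by interferon gamma, whereas CXCL10 and CXCL11 also respond to type I interferons, and CXCL10 to signals that act through NF-kB.

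The 3 ligand genes lie side by side on the minus strand of chromosome 5 (GRCm38.p6, RefSeq). Cxcl9 (Entrez 17329) spans chr5:92321331-92328079, Cxcl10 (Entrez 15945) chr5:92346638-92348889 and Cxcl11 (Entrez 56066) chr5:92359544-92363296. Cxcl11 is annotated as a transcribed pseudogene, since the C57BL/6 reference carries a disrupted reading frame. Its values below are those of a transcript and do not stand for CXCL11 protein. Cxcr3 (Entrez 12766) lies on the minus strand of the X chromosome at chrX:101731535-101734147.

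The promoters of Cxcl9 and Cxcl10 are shown because these neighbouring genes, both among the most abundant transcripts of these cells, differed in their response to anti-MerTK. Each sequence runs from 250 bases before the RefSeq start site to 50 bases after it on the minus strand (GRCm38.p6, chr5:92328030-92328329 for Cxcl9 and chr5:92348840-92349139 for Cxcl10). Capitals mark matches to the interferon-stimulated response element (ISRE, searched as GAAANNGAAA) and to the NF-kB consensus.
Cxcl9: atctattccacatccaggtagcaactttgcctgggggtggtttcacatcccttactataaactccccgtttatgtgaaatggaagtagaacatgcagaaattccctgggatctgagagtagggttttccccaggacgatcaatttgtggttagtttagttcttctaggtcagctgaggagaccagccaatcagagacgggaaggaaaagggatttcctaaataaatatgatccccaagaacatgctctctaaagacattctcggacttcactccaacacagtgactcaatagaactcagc
Cxcl10: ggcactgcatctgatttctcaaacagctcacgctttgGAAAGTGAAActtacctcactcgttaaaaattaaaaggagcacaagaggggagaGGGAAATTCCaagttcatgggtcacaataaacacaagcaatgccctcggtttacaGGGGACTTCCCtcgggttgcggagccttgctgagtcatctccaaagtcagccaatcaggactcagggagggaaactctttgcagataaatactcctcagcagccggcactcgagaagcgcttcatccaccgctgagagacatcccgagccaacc
The Cxcl10 window held the ISRE letters GAAAGTGAAA at positions -213 to -204 from the start site, and 3 stretches of the NF-kB consensus, at -159 to -150, -104 to -95 and -103 to -94. The last of these overlaps the one before it and matches on both strands. The same search, which also covered the gamma-activated sequence (GAS, searched as TTCNNNGAA) on both strands, found no match to these letters in the windows of Cxcl9 and Cxcr3. A search by letters misses elements that depart from them, so it does not show that these promoters lack such elements. Whether the motifs bear on the response was not tested. Over 27025 RefSeq promoters of the same length, 3.49% held the ISRE letters, 8.47% the GAS letters and 8.18% the NF-kB consensus.

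Between 33159858 and 46108687 reads were counted in a library, over 16475 to 18090 genes. Markers of macrophages, such as Csf1r, Adgre1 and C1qa, were abundant: the 10 listed genes summed to 31648 to 37359 CPM (counts scaled to a common library size) after anti-MerTK and 29331 to 39746 CPM after anti-gp120, and none of the 10 passed the test. Mertk itself, the target of the antibody, averaged 78.9 ± 4.96 CPM after anti-MerTK and 91.1 ± 14.3 CPM after anti-gp120 (mean ± SD over 5 libraries each), a difference that did not pass (edgeR adjusted p = 0.263). Anti-MerTK replicates 2 and 5 had been set apart in earlier work on these data, and the genes that passed are also given without both. Among the anti-MerTK libraries, replicate 2 had the highest Cxcl11 and Ifi211, and replicate 5 the highest Ccr7, Col1a1 and S100a8. Values that far from their group were found in 8 of 144 groups checked, near the 1 in 20 that chance gives. Most of the 8 belonged to anti-MerTK replicates 2 and 5, and that rate does not speak to such clustering, which was not tested.

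Across all 13588 genes tested with edgeR's quasi-likelihood test at an adjusted p under 0.05, 3.22% passed, 1.85% as higher and 1.38% as lower after anti-MerTK. All 4 genes were tested. Cxcl10 rose and Cxcr3 fell after anti-MerTK, while Cxcl9 and Cxcl11 did not pass. In 5.97% of all tested genes the groups did not overlap, and this held for Cxcl10 alone among the 4.

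Cxcl10 had 964, 1202, 1107, 1062 and 1038 CPM in the 5 anti-MerTK libraries and 883, 484, 668, 649 and 844 CPM in the 5 anti-gp120 libraries. Every anti-MerTK library lay above every anti-gp120 library, although anti-gp120 replicates 1 and 5 came close to the lowest of them. The mean was 1075 ± 87.7 CPM after anti-MerTK and 706 ± 162 CPM after anti-gp120 (SD, n = 5 each), a 1.52-fold rise (log2 fold change 0.61, SE 0.14, 95% interval 0.33 to 0.89, edgeR adjusted p = 0.0426). By size it was 141st among the 251 genes that rose. The rise passed narrowly: with a single library left out the fold change lay between 0.49 and 0.70 on the log2 scale and passed in 3 of 10 fits. It did not pass without anti-MerTK replicate 1, 2, 3 or 4 (adjusted p = 0.0795, 0.0947, 0.102 and 0.0689), without anti-gp120 replicate 2, 3 or 4 (0.0619, 0.0756 and 0.120), or without anti-MerTK replicates 2 and 5 together (log2 fold change 0.57, adjusted p = 0.132).

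Cxcl9 had 1587, 1866, 1562, 2479 and 1968 CPM after anti-MerTK and 2481, 1227, 2220, 1680 and 2312 CPM after anti-gp120. The groups overlapped almost completely, with the highest library of each near the same level. The mean was 1892 ± 372 CPM after anti-MerTK and 1984 ± 519 CPM after anti-gp120 (SD, n = 5 each; log2 fold change -0.07, SE 0.19, adjusted p = 0.869 by edgeR). The approximate 95% interval of the log2 fold change ran from -0.44 to 0.30, which leaves out a rise of the size seen for Cxcl10. Between 51116 and 109409 reads per library stood behind these values, so counting error was small beside the spread between libraries. Its sign turned without anti-gp120 replicate 1 (log2 fold change 0.02, adjusted p = 0.958).

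Cxcl11 had 14.6, 36.1, 15.4, 19.9 and 17.7 CPM after anti-MerTK and 13.1, 4.70, 11.3, 9.15 and 14.7 CPM after anti-gp120. All 5 anti-MerTK libraries lay above the anti-gp120 mean, and the groups overlapped only where anti-MerTK replicate 1 met anti-gp120 replicate 5. The mean was 20.7 ± 8.83 CPM after anti-MerTK and 10.6 ± 3.87 CPM after anti-gp120 (SD, n = 5 each). The log2 fold change of 0.97 (SE 0.32, 95% interval 0.34 to 1.60) did not pass (edgeR adjusted p = 0.120). Anti-MerTK replicate 2 carried much of this difference: without it the log2 fold change was 0.68. At 196 to 1170 reads per library, Cxcl11 was sparse beside the other ligands, and reads of the overlapping gene Art3 on the other strand could not be told apart from it or from Cxcl10 if counting did not use strand, which is not given in the sources used here. Art3 itself was at 0.545 ± 0.108 CPM after anti-MerTK and 0.346 ± 0.0759 CPM after anti-gp120 (SD, n = 5 each).

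Cxcr3 had 13.4, 10.1, 12.1, 14.5 and 9.84 CPM after anti-MerTK and 13.1, 21.8, 27.6, 24.2 and 25.6 CPM after anti-gp120. Anti-gp120 replicate 1 lay within the anti-MerTK range, and the other 4 anti-gp120 libraries lay above every anti-MerTK library. The mean was 11.97 ± 2.01 CPM after anti-MerTK and 22.4 ± 5.64 CPM after anti-gp120 (SD, n = 5 each; log2 fold change -0.90, SE 0.18, 95% interval -1.26 to -0.54, edgeR adjusted p = 0.0273). Among the 187 genes that fell it was the 8th by size. With a single library left out the log2 fold change lay between -1.05 and -0.82 and passed in 4 of 10 fits. It did not pass without anti-MerTK replicate 1, 2 or 3 (adjusted p = 0.0628, 0.0667 and 0.0740), without anti-gp120 replicate 2, 3 or 4 (0.0618, 0.0557 and 0.0791), or without anti-MerTK replicates 2 and 5 together (log2 fold change -0.75, adjusted p = 0.118). In bulk RNA, fewer cells of a type and less RNA per cell cannot be told apart.

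**Figure D1:**
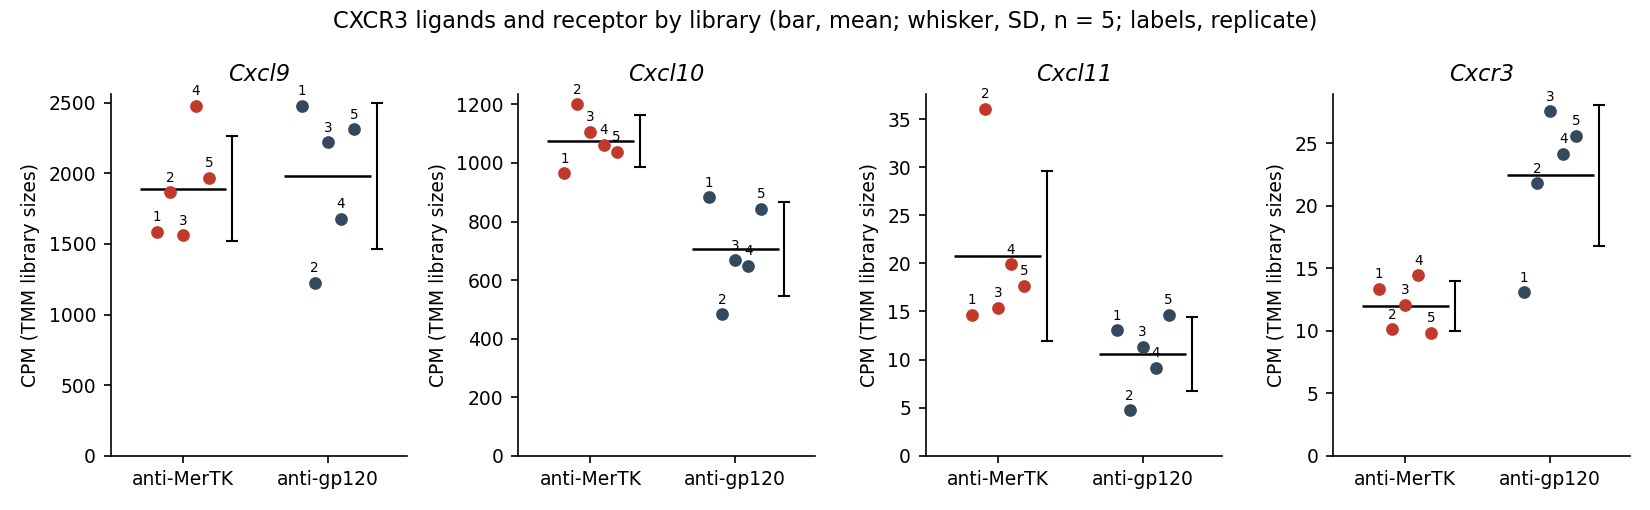
CPM of Cxcl9, Cxcl10, Cxcl11 and Cxcr3 (one panel each, linear axis from 0) in each library of the anti-MerTK (left) and anti-gp120 (right) groups. Points are libraries labelled by replicate, bars are means and whiskers SD (n = 5 each). Cxcl10 separates the groups, Cxcl9 does not, and anti-gp120 replicate 1 is the only anti-gp120 library within the anti-MerTK range of Cxcr3.

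Levels between genes were compared per length, as RPKM (counts scaled to gene length and library size). Cxcl10 averaged 980 ± 79.1 RPKM after anti-MerTK and 643 ± 149 RPKM after anti-gp120 (SD, n = 5 each). Cxcl9 averaged 654 ± 127 RPKM after anti-MerTK and 686 ± 182 RPKM after anti-gp120. Among the 22023 genes with a count, Cxcl10 ranked 60th by mean RPKM after anti-MerTK and 90th after anti-gp120, and Cxcl9 ranked 100th and 84th in the same groups. Cxcl11 was far lower, at 12.9 ± 5.47 RPKM after anti-MerTK and 6.59 ± 2.43 RPKM after anti-gp120. The receptor Cxcr3 stood at 7.48 ± 1.24 RPKM after anti-MerTK and 14.0 ± 3.56 RPKM after anti-gp120. The order of Cxcl11 and Cxcr3 thus differed between the groups: Cxcl11 was the higher of the pair by mean after anti-MerTK, and Cxcr3 after anti-gp120.

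The balance between the ligand transcripts differed between the groups. The ratio of Cxcl9 to Cxcl10 in RPKM was 0.624, 0.589, 0.535, 0.885 and 0.718 after anti-MerTK and 1.06, 0.961, 1.26, 0.980 and 1.04 after anti-gp120. Cxcl10 was the more abundant ligand in all 5 anti-MerTK libraries, whereas the anti-gp120 libraries lay on either side of equality. The mean ratio was 0.670 ± 0.137 in the anti-MerTK group and 1.06 ± 0.119 in the anti-gp120 group (SD, n = 5 each). On the log2 CPM scale the ratio was lower by 0.68 in the anti-MerTK group, and the groups did not overlap (difference -0.68, two-sided exact permutation p = 0.00794, the smallest that 5 against 5 libraries allow, 0.0119 adjusted over 3 ratios). Library size cancels in such a ratio. Because each ligand was measured in the same library, this shows unequal change and not which ligand moved.

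Cxcl9 also changed relative to Cxcl11. Their RPKM ratio was 55.2 ± 15.5 in the anti-MerTK group and 110 ± 21.2 in the anti-gp120 group (SD, n = 5 each), with no overlap (log2 difference -1.03, two-sided exact permutation p = 0.00794, 0.0119 adjusted over 3 ratios). The ratio of Cxcl11 to Cxcl10 was 0.35 higher on the log2 scale after anti-MerTK, a difference that did not pass, and the groups overlapped (two-sided exact permutation p = 0.206, 0.206 adjusted). With each library left out in turn, the differences of Cxcl9 ran from -0.78 to -0.60 against Cxcl10 and from -1.12 to -0.81 against Cxcl11. Both passed in each such test, but this was fixed in advance. Groups that do not overlap stay apart when a library is left out, and the permutation p is then again the smallest possible. Without anti-MerTK replicates 2 and 5 together, the differences were -0.67 and -0.81, with the groups still apart, and the exact permutation p was the smallest that 3 libraries against 5 allow (0.0357 each, 0.0536 adjusted).

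**Figure D2:**
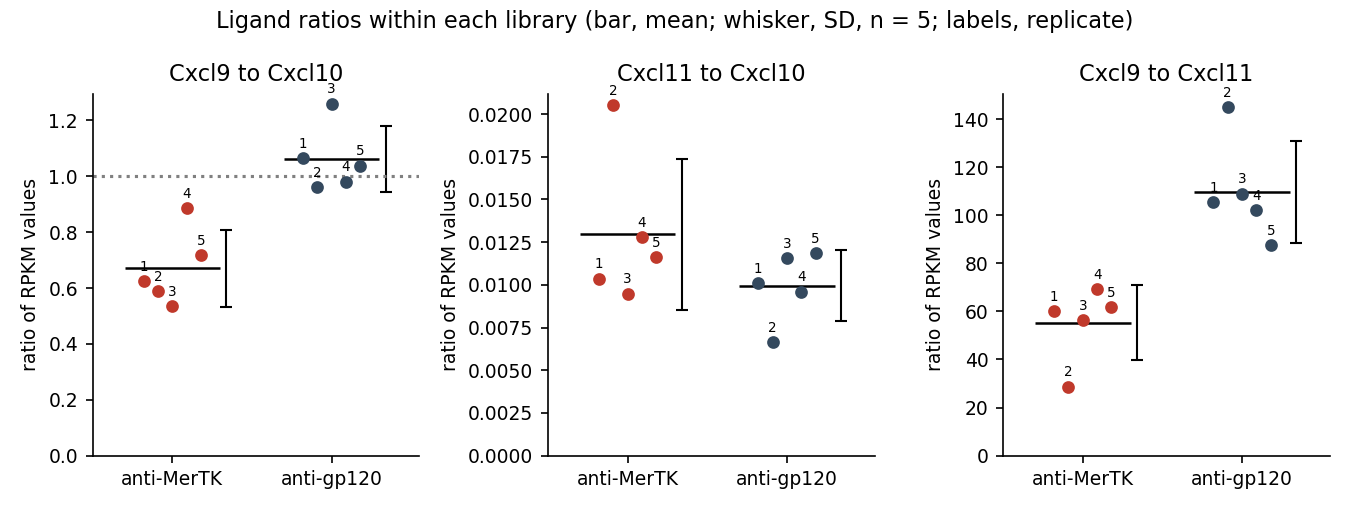
Ratios of RPKM values within each library for Cxcl9 to Cxcl10, Cxcl11 to Cxcl10 and Cxcl9 to Cxcl11 (linear axes from 0), anti-MerTK left and anti-gp120 right. Points are libraries labelled by replicate, bars are means, whiskers are SD (n = 5 each) and the dotted line marks equal levels. Both ratios of Cxcl9 separate the groups, with anti-MerTK lower, and Cxcl11 to Cxcl10 overlaps.

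Within the groups, the ligands varied together. Deviations of log2 CPM from the group means correlated across the 10 libraries at Pearson r = 0.77 between Cxcl9 and Cxcl10, 0.74 between Cxcl9 and Cxcl11 and 0.86 between Cxcl10 and Cxcl11, a description over points that share library and depth. Cxcr3 did not follow them (r = -0.12, -0.38 and -0.21 against Cxcl9, Cxcl10 and Cxcl11). Among 8075 genes with a mean of at least 10 CPM, those most like Cxcl9 by this measure over the 10 libraries were Nampt (r = 0.95), Gbp3 (0.90) and Gbp6 (0.90), of which the Gbp genes encode interferon-induced GTPases. Those most like Cxcl10 were Il27 (0.97), a cytokine subunit, Taf6l (0.96) and 9130401M01Rik (0.96). Cxcl11 was most like Ifi211 (0.99), an interferon-inducible gene, the co-stimulatory receptor gene Cd40 (0.98) and Dusp28 (0.97). Cxcr3 was most like Ivd (0.96), Ust (0.94) and Exd2 (0.94). Such top values are the extremes of a search over 8075 genes with 10 libraries.

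The signals upstream of the ligands were examined next. Interferon gamma itself was nearly undetected: Ifng had 0 to 2 reads per library after anti-MerTK and 0 to 4 reads after anti-gp120. Of 12 genes of the interferon gamma arm, 10 were tested, of which 0 rose and 1 fell, with a median log2 fold change of -0.01 (all tested genes -0.0059). Over all tested genes, 1.85% rose and 1.38% fell. The gene that fell was Ifngr1, the ligand-binding chain of the interferon gamma receptor, at 186 ± 22.5 CPM after anti-MerTK and 251.7 ± 31.2 CPM after anti-gp120 (SD, n = 5 each; log2 fold change -0.43, SE 0.10, adjusted p = 0.0449 by edgeR), and the groups overlapped. Without anti-MerTK replicate 1, 2 or 3 or anti-gp120 replicate 2, 3 or 4 it did not pass (adjusted p over the 10 fits 0.0250 to 0.128), nor without anti-MerTK replicates 2 and 5 (0.121) or with limma on log2 RPKM (0.0541). Irf1, a transcription factor downstream of that receptor, differed by 0.15 on the log2 scale (anti-MerTK over anti-gp120), short of the threshold (adjusted p = 0.602).

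In the type I interferon arm, 5 of 11 tested genes rose and 0 fell, against 1.85% and 1.38% of all tested genes. The median log2 fold change of the arm was 0.31. Ifnb1, which encodes interferon beta, had 1.70, 1.64, 2.02, 2.97 and 2.20 CPM after anti-MerTK and 1.57, 0.696, 1.01, 0.568 and 0.490 CPM after anti-gp120. The groups did not overlap, as in 5.97% of all tested genes, but anti-gp120 replicate 1 lay close to the anti-MerTK libraries. Its mean was 2.11 ± 0.535 CPM after anti-MerTK and 0.865 ± 0.438 CPM after anti-gp120 (SD, n = 5 each; log2 fold change 1.29, edgeR adjusted p = 0.0430), from 53 to 131 and 20 to 57 reads per library in these groups. Irf7, a transcription factor that amplifies the type I response, averaged 1277 ± 293 CPM after anti-MerTK and 531 ± 150 CPM after anti-gp120 (log2 fold change 1.27, adjusted p = 0.0117). Usp18, a feedback inhibitor of the type I receptor, averaged 258 ± 63.8 CPM after anti-MerTK and 104 ± 25.02 CPM after anti-gp120 (log2 fold change 1.31, adjusted p = 0.0114). Stat2, a part of the factor that binds the ISRE, rose with a log2 fold change of 1.19 (adjusted p = 0.0452), and Ikbke, a kinase upstream of interferon transcription, with 0.65 (adjusted p = 0.0323). Irf9, the DNA-binding partner of Stat2, had a log2 fold change of 0.31 and missed the threshold (adjusted p = 0.0541), while the receptor chains Ifnar1 and Ifnar2 were at -0.25 and -0.07 and did not pass.

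Irf7 and Usp18 passed with each of the 10 libraries left out (adjusted p at most 0.0468 and 0.0427). Ifnb1 passed in 2 of 10 such fits, those without anti-MerTK replicate 5 or anti-gp120 replicate 1 (adjusted p up to 0.116). Stat2 passed in 2, those without replicate 5 of either group (up to 0.126), and with all libraries it did not pass without the filter on low counts (0.115) or with limma on log2 RPKM (0.0598). Ikbke passed in 5 and did not pass without anti-MerTK replicate 1 or 4 or anti-gp120 replicate 2, 3 or 4 (up to 0.0892). Without anti-MerTK replicates 2 and 5 together, 4 genes of the arm rose, and Ifnb1 did not pass (adjusted p = 0.0849).

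Of 12 tested genes of the NF-kB arm, 0 rose and 0 fell, against 1.85% and 1.38% of all tested genes. The median log2 fold change of this arm was -0.0027. Tnf, the cytokine gene nearest to the threshold, averaged 481 ± 42.7 CPM after anti-MerTK and 340 ± 73.1 CPM after anti-gp120 (SD, n = 5 each; log2 fold change 0.50, edgeR adjusted p = 0.0584). It passed with DESeq2 (adjusted p = 0.00713), with limma-voom (0.0246) and without anti-gp120 replicate 5 (0.0175). Nfkbiz, an inducible regulator of NF-kB, had a log2 fold change of 0.25 (adjusted p = 0.129). The subunit genes Rela, Nfkb1 and Rel lay within 0.04 of 0 on the log2 fold change scale.

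Among cytokines that drive lymphocytes to make interferon gamma, 2 of 6 tested genes rose and 0 fell (median log2 fold change 0.37). The shares over all tested genes were 1.85% and 1.38%. Il18 averaged 25.7 ± 1.92 CPM after anti-MerTK and 18.3 ± 3.14 CPM after anti-gp120 (SD, n = 5 each; log2 fold change 0.49, edgeR adjusted p = 0.0331). Il15, which sustains NK cells and memory T cells, averaged 18.1 ± 3.92 CPM after anti-MerTK and 11.7 ± 1.86 CPM after anti-gp120 (log2 fold change 0.62, adjusted p = 0.0434). The groups overlapped for both. Il18 passed in 3 of 10 fits with a library left out, those without anti-MerTK replicate 5 or anti-gp120 replicate 1 or 3 (adjusted p up to 0.102), and Il15 in 2, those without replicate 5 of either group (up to 0.118). Without anti-MerTK replicates 2 and 5 together, 0 genes of this list passed (Il18 0.0982, Il15 0.0660), and Il15 did not pass with limma on log2 RPKM (0.0521). Il27, at 0.46 on the log2 fold change scale, missed the threshold with edgeR (adjusted p = 0.0971) and passed with DESeq2 (0.0355) and limma-voom (0.0426).

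**Figure D3:**
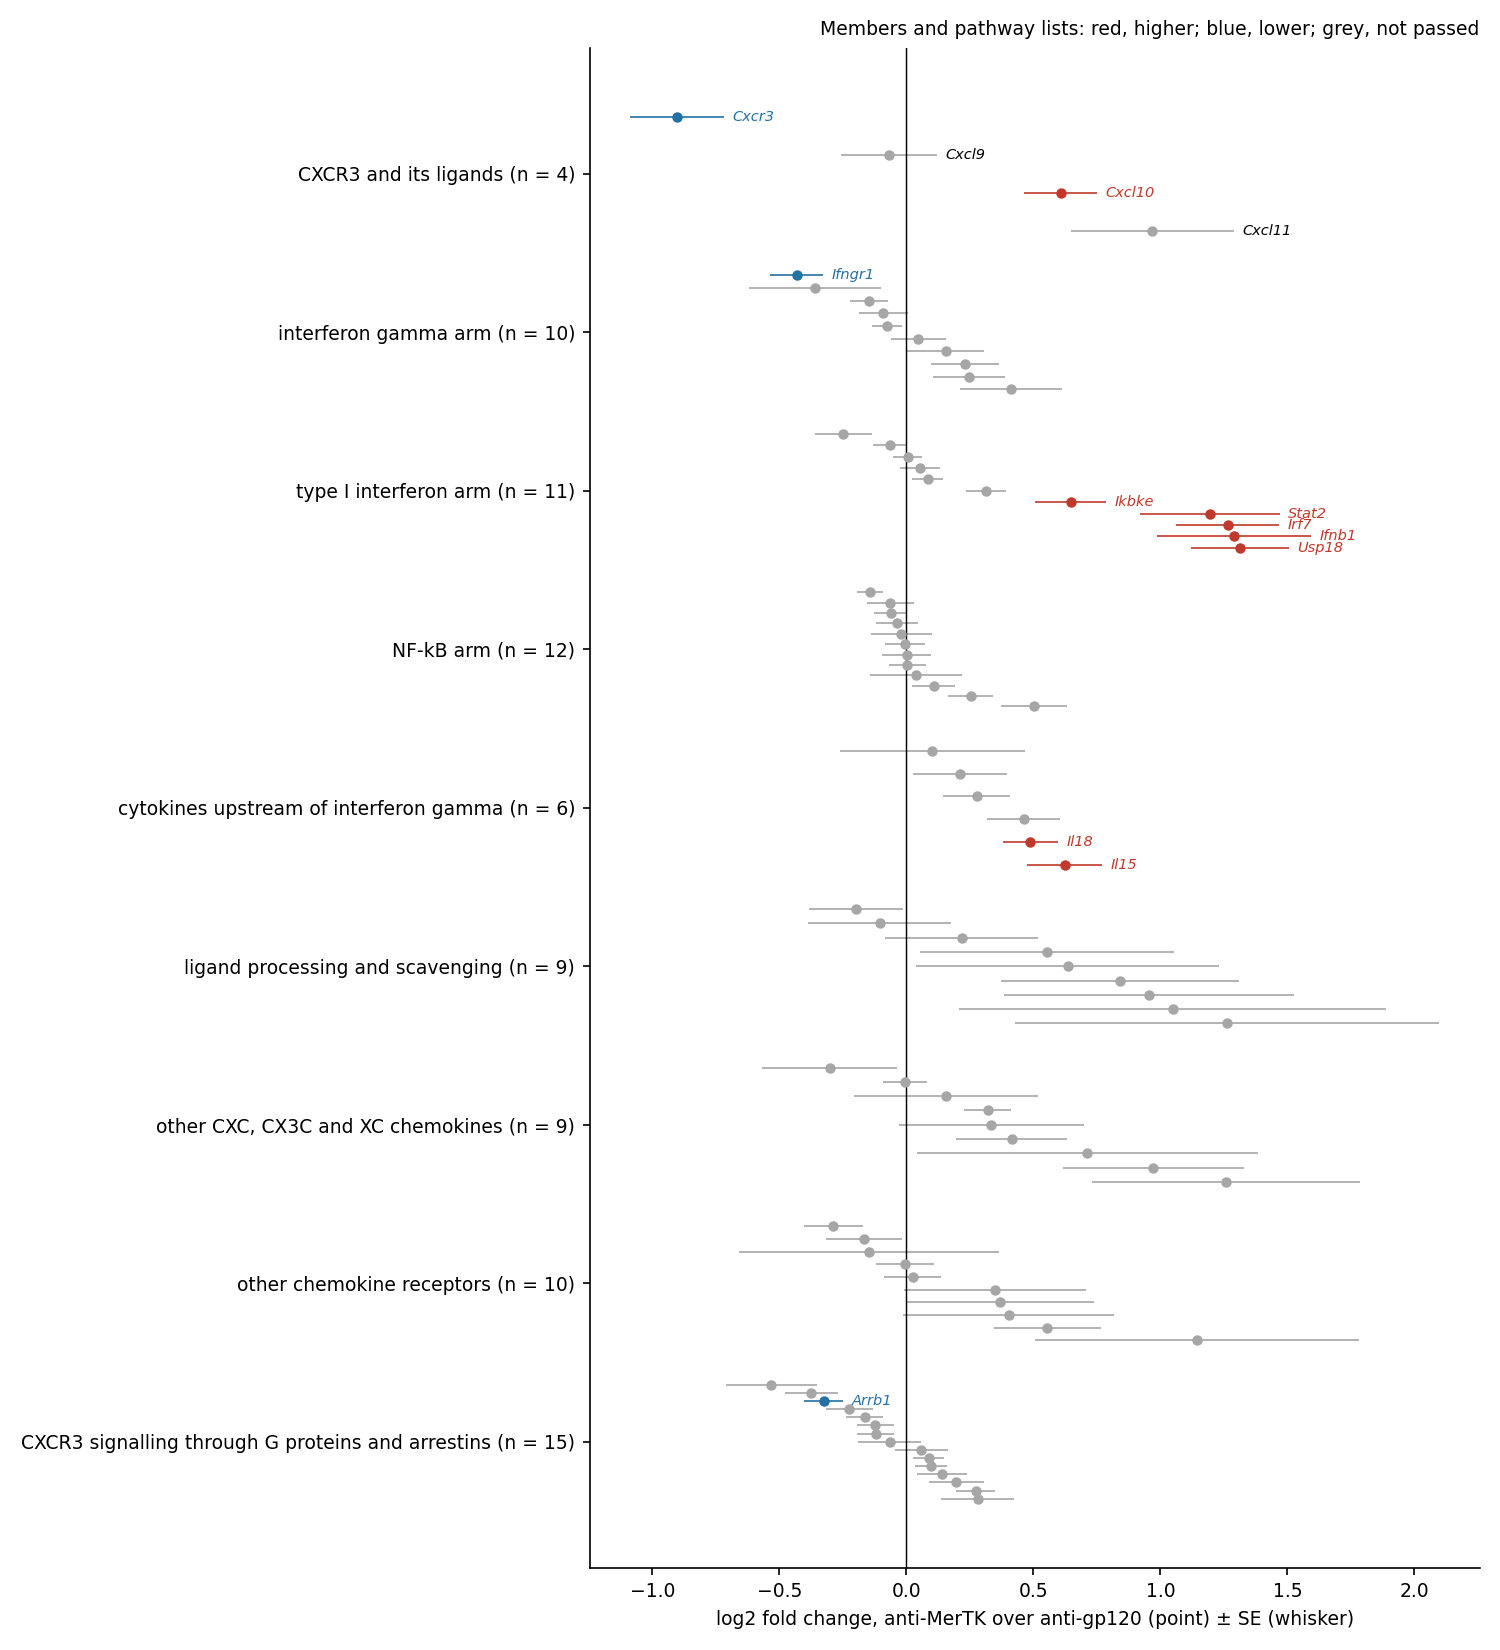
Log2 fold change of anti-MerTK over anti-gp120 (horizontal axis; points with SE whiskers, n = 5 libraries per group) for the 4 genes and each tested gene of the pathway lists. Red marks genes that rose, blue genes that fell and grey genes that did not pass. The 5 red genes of the type I interferon arm lie between 0.65 and 1.31, and the NF-kB arm has none. Of all tested genes, 1.85% rose and 1.38% fell.

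Markers of monocytes and plasmacytoid dendritic cells were set beside Cxcl10 and the type I interferon arm. For comparison with the counts below, 1.85% of all tested genes rose and 1.38% fell. The 9 monocyte markers summed to 384 to 645 CPM after anti-MerTK and 161 to 457 CPM after anti-gp120, ranges that overlap. Of 8 tested, 1 rose and 0 fell: Plac8, named after its values were seen, averaged 71.4 ± 34.4 CPM after anti-MerTK and 13.8 ± 10.8 CPM after anti-gp120 (SD, n = 5 each; log2 fold change 2.37, edgeR adjusted p = 0.0346). Plac8 passed in 4 of 10 fits with a library left out, those without anti-MerTK replicate 4 or 5 or anti-gp120 replicate 1 or 5 (adjusted p up to 0.109), and not without anti-MerTK replicates 2 and 5 (0.156) or without the filter on low counts (0.0905). The 6 plasmacytoid markers summed to 695 to 892 CPM after anti-MerTK and 452 to 623 CPM after anti-gp120, and of 3 tested 2 rose and 0 fell. Most of that sum was Bst2, itself an interferon-induced gene, at 743 ± 74.8 CPM after anti-MerTK and 473 ± 61.8 CPM after anti-gp120 (SD, n = 5 each; log2 fold change 0.65, edgeR adjusted p = 0.0114), which passed with every library left out. The other, Cox6a2, also named after its values were seen, averaged 4.99 ± 1.03 CPM after anti-MerTK and 2.98 ± 0.613 CPM after anti-gp120 (log2 fold change 0.74, adjusted p = 0.0436). It passed in 2 of 10 fits with a library left out, those without replicate 5 of either group (adjusted p up to 0.0995), and not without anti-MerTK replicates 2 and 5 (0.0977). The defining marker Siglech was at 0 in 8 of 10 libraries and never above 2 reads. Defining markers of monocytes were present, with Ly6c2 at 7.73 CPM after anti-MerTK and 4.52 CPM after anti-gp120 on average, and the part of monocytes in the ligand values was not tested.

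Genes that act on the ligands after secretion did not pass. Of 9 tested genes for processing and scavenging, 0 rose and 0 fell, against 1.85% and 1.38% of all tested genes (median log2 fold change of the list 0.64). Ackr3, an atypical receptor that takes up CXCL11, had a log2 fold change of 0.84 (edgeR adjusted p = 0.330), and the protease gene Mmp9 had 0.95 (adjusted p = 0.365). Both genes were sparse, at a few CPM on average.

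Of 9 tested genes for other CXC, CX3C and XC chemokines, 0 rose and 0 fell (median log2 fold change 0.33). Of all tested genes, 1.85% rose and 1.38% fell. Cxcl14 had a log2 fold change of 0.32 (edgeR adjusted p = 0.0809, passing with DESeq2 at 0.0226), and Cxcl13, a B cell attractant, had 0.97 (adjusted p = 0.153). Cxcl16, the ligand of CXCR6, averaged 506 RPKM after anti-MerTK and 507 RPKM after anti-gp120. Cxcl2, a neutrophil attractant, averaged 368 RPKM after anti-MerTK and 275 RPKM after anti-gp120. The mean levels of Cxcl9 and Cxcl10 per length were above those of Cxcl16 and Cxcl2 in both groups.

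Cxcr3 was a minor chemokine receptor transcript in these cells. Per length, Cx3cr1 averaged 320 RPKM in both groups, and Cxcr4 averaged 291 RPKM after anti-MerTK and 355 RPKM after anti-gp120, both well above Cxcr3. Of 10 other receptors tested, 0 rose and 0 fell (median log2 fold change 0.19). Ccr2, the receptor of inflammatory monocytes, had a log2 fold change of 0.55 (edgeR adjusted p = 0.165), and Cxcr4 had -0.29 (adjusted p = 0.177). Of 15 genes through which CXCR3 signals, 0 rose and 1 fell (median log2 fold change -0.07). Over all tested genes, 1.85% rose and 1.38% fell, so 1 call among 15 genes is too few to read as a trait of this list. Arrb1, a beta-arrestin gene, averaged 87.1 ± 6.93 CPM after anti-MerTK and 109 ± 9.67 CPM after anti-gp120 (SD, n = 5 each; log2 fold change -0.33, SE 0.08, adjusted p = 0.0434), and the groups did not overlap. Such separation held for 5.97% of all tested genes. Arrb1 passed in 2 of 10 edgeR fits with a library left out, those without anti-gp120 replicate 1 or 3 (adjusted p up to 0.107). It did not pass without anti-MerTK replicates 2 and 5 (0.103) or with limma on log2 RPKM (0.0503).

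Because CXCR3 is best known from lymphocytes, Cxcr3 was set beside lymphocyte markers in each library. The CD3 chain genes Cd3e, Cd3d and Cd3g, which T cells need for their antigen receptor, summed to 0.227, 0.139, 0.416, 0.191 and 0.533 RPKM after anti-MerTK and 0.820, 0.329, 0.356, 0.107 and 0.461 RPKM after anti-gp120. Cxcr3 in the same libraries was at 8.35, 6.31, 7.57, 8.98 and 6.17 RPKM after anti-MerTK and 8.16, 13.4, 17.3, 15.1 and 15.99 RPKM after anti-gp120. Cxcr3 was 11.6 to 47.0 times the CD3 sum per length after anti-MerTK and 9.94 to 141 times after anti-gp120. The library with the highest CD3 sum, anti-gp120 replicate 1, had the lowest Cxcr3 of its group.

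The 13 T cell markers together reached higher levels than the CD3 chains, with sums of 7.22 to 21.8 CPM after anti-MerTK and 13.6 to 23.1 CPM after anti-gp120. Cd4 made up much of this, at 6.03 ± 3.13 CPM after anti-MerTK and 7.56 ± 3.18 CPM after anti-gp120 (SD, n = 5 each). Of 8 tested, 0 rose and 1 fell, against 1.85% and 1.38% of all tested genes. The median log2 fold change of the 8 was -0.36 and 7 were negative, the sign of Cxcr3. The gene that fell, Cd247, which encodes the zeta chain used by T cells and NK cells, averaged 3.84 ± 0.481 CPM after anti-MerTK and 5.65 ± 0.910 CPM after anti-gp120 (SD, n = 5 each; log2 fold change -0.56, edgeR adjusted p = 0.0483), with no overlap, and passed in 3 of 10 fits with a library left out, those without anti-MerTK replicate 5 or anti-gp120 replicate 3 or 5 (adjusted p up to 0.137). It did not pass without anti-MerTK replicates 2 and 5 (0.142), without the filter on low counts (0.0511) or with limma on log2 RPKM (0.0848). Groups without overlap were found in 5.97% of all tested genes. Cd3e, Cd3d and Cd3g were below the filter. Cd3d averaged 0.137 CPM after anti-MerTK and 0.291 CPM after anti-gp120, and all 5 anti-MerTK libraries lay below the anti-gp120 mean. Cd3g averaged 0.161 CPM after anti-MerTK and 0.177 CPM after anti-gp120. Cd3e was not lower, at 0.0847 CPM after anti-MerTK and 0.0784 CPM after anti-gp120. The 10 NK cell markers summed to 1.25 to 3.07 CPM after anti-MerTK and 0.336 to 4.31 CPM after anti-gp120, and neither of the 2 tested passed. Ncr1, which defines NK cells, was at 0 in 7 of 10 libraries and never above 2 reads. Reads of Cxcr3 numbered 328 to 1044 per library, and those of Cd3e, Cd3d and Cd3g reached at most 9, 16 and 19. The part of lymphocytes in the Cxcr3 values was not tested.

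Dendritic cells of the XCR1 type, a known source of CXCL9, left a measurable trace. Their 7 markers summed to 689 to 811 CPM after anti-MerTK and 599 to 851 CPM after anti-gp120. Of these, 0 of 7 tested passed, against 3.22% of all tested genes. Most of that sum was Irf8, also in the interferon gamma list, at 486 CPM after anti-MerTK and 471 CPM after anti-gp120 on average. Xcr1 averaged 6.33 RPKM after anti-MerTK and 4.89 RPKM after anti-gp120, and Clec9a averaged 3.77 RPKM after anti-MerTK and 2.63 RPKM after anti-gp120. Their part in the levels of the 4 genes was not tested.

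Of the 5 listed markers of carcinoma epithelium, only Cdh1 was tested, and it fell, as Cxcr3 did. Cdh1 averaged 28.2 ± 3.66 CPM after anti-MerTK and 46.5 ± 10.01 CPM after anti-gp120 (SD, n = 5 each; log2 fold change -0.72, edgeR adjusted p = 0.0244), with no overlap. It did not pass without anti-MerTK replicate 1, 2 or 3 or anti-gp120 replicate 2 (adjusted p up to 0.0708), nor without anti-MerTK replicates 2 and 5 (0.0930). Of all tested genes, 1.38% fell, and in 5.97% the groups did not overlap. The other markers were below the filter and did not share a direction. Of the defining markers, Epcam averaged 0.0269 CPM after anti-MerTK and 0.0464 CPM after anti-gp120, and Krt8 0.574 and 0.278 CPM in these groups. Krt18 averaged 0.0279 CPM after anti-MerTK and 0.0452 CPM after anti-gp120, and Krt19 0.0888 and 0.0049 CPM. The part of epithelium in the Cdh1 values was not tested.

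**Figure D4:**
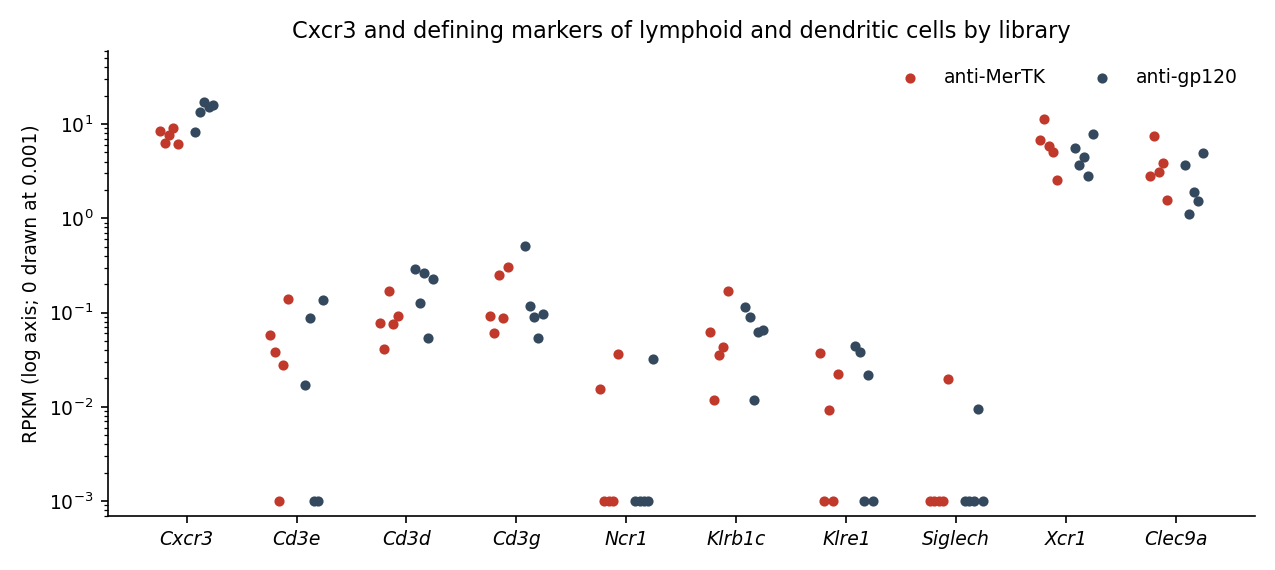
RPKM (log axis, with libraries at 0 drawn at 0.001) of Cxcr3 and of defining markers of T cells (Cd3e, Cd3d, Cd3g), NK cells (Ncr1, Klrb1c, Klre1), plasmacytoid dendritic cells (Siglech) and XCR1 dendritic cells (Xcr1, Clec9a). Each point is a library, anti-MerTK left and anti-gp120 right of each gene. Cxcr3 lies above every CD3, NK and Siglech point, at levels comparable with those of Xcr1.

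None of the 6 tested neighbours of the 4 genes passed, against 3.22% of all tested genes. Of the protein-coding genes within 100 kb of the ligands, Naaa, Sdad1, Art3 and Nup54 differed by 0.24, 0.17, 0.65 and 0.03 on the log2 scale (anti-MerTK over anti-gp120) and Scarb2 by -0.29, and none passed (edgeR adjusted p = 0.498, 0.261, 0.161, 0.889 and 0.120). Beside Cxcr3, Ogt had a log2 fold change of -0.12 and did not pass (adjusted p = 0.576). Ppef2 beside the ligands and Gm4779 and 8030474K03Rik beside Cxcr3 were below the filter and not tested.

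**Figure D5:**
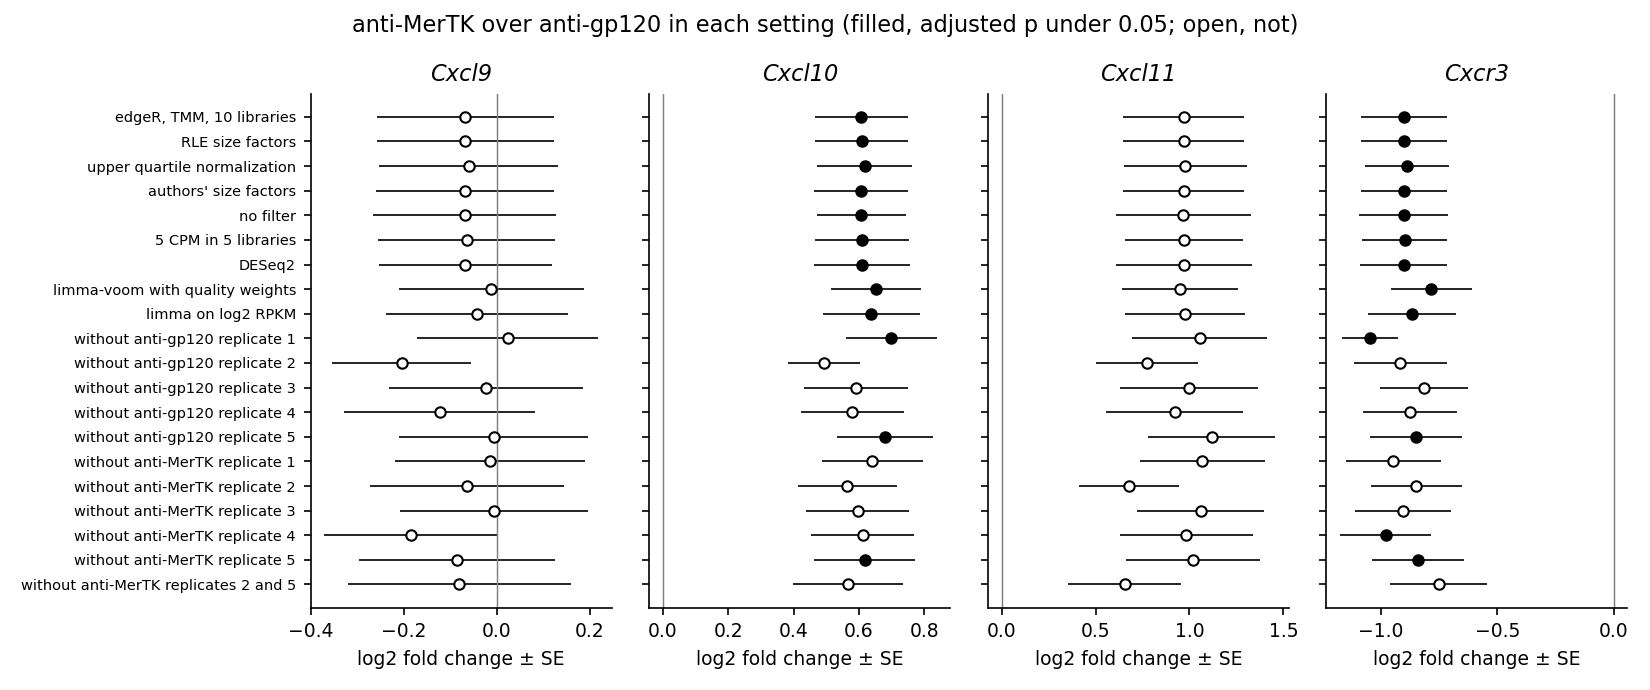
Log2 fold change of anti-MerTK over anti-gp120 with its SE for the 4 genes (panels) under each setting (rows). Filled points passed at an adjusted p under 0.05 and open points did not. Cxcl10 stays between 0.49 and 0.70 and Cxcr3 between -1.05 and -0.75 throughout, while passing depends on which libraries enter.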

How the data were processed

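RNA-seq was performed on polyadenylated RNA of 10 libraries, 5 per antibody, grouped by the treatment in the labels. Reads were aligned with GSNAP to GRCm38, per the submitters' processing notes; of the aligner's version, the annotation, the counting tool and its use of strand, none is given in the sources used here. The deposited count of a gene is a whole number of reads, and the deposited RPKM values were scaled by the authors to gene length and library size, per the file headers. Genes are named by Entrez identifier, matched to RefSeq (GRCm38.p6; 31049 of 36528) and GENCODE M21 (77). The 5402 without a name stayed in library sizes and tests (2.14% to 2.65% of counts).

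Groups were compared with the quasi-likelihood test of edgeR 4.0.16 (R 4.3.3) on the counts of genes kept by filterByExpr, with TMM library sizes, robust dispersions (common biological coefficient of variation 0.159) and Benjamini-Hochberg adjustment over 13588 genes. p-values are two-sided and SEs approximate. CPM values use TMM library sizes. Ligand ratios (log2 CPM, prior count 2) were compared by exact permutation over libraries (scipy 1.17.1). Totals of 33159858 to 46108687 counts limit precision mainly for genes under 1 CPM.

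The 4 genes, the gene lists and the tests were chosen with earlier results of these data known. The text names these 4 genes, list members that passed (otherwise the 2 of smallest p), the 2 most abundant and the defining markers per cell type, the 3 most alike genes per member and protein-coding neighbours within 100 kb. Any other list gene in the text was chosen after its values were seen. Alternatives were RLE, upper quartile and the authors' size factors, no filter, 5 CPM in 5 libraries, DESeq2 1.42.0, limma-voom with quality weights and limma on log2(RPKM + 0.1) (limma 3.58.1), and leaving out libraries. Promoter windows are from RefSeq.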

Additional observations from a re-analysis of the deposited data

Results flagged for a closer look

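A library stood far from the other 4 of its group in 8 of 144 groups of values checked (each gene in each treatment group); chance alone gives about 1 in 20. Anti-MerTK replicate 2 had 36.1 CPM of Cxcl11, against 14.6 to 19.9 CPM in the other anti-MerTK libraries. The same library had a log2 ratio of Cxcl9 to Cxcl11 of 5.69, against 6.66 to 6.96. It also had 155 CPM of Ifi211, an interferon-inducible gene, against 101 to 116 CPM.

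Anti-MerTK replicate 5 had 28.3 CPM of Ccr7, the homing receptor of mature dendritic cells and naive T cells, against 2.47 to 5.89 CPM in the other anti-MerTK libraries. It had 19.5 CPM of the collagen gene Col1a1, against 0.756 to 1.84 CPM, and 1.62 CPM of the neutrophil gene S100a8, against 0.160 to 0.278 CPM. Among anti-gp120 libraries, replicate 2 had 2.26 CPM of Col1a2, against 0.417 to 0.649 CPM, and replicate 1 had 13.2 CPM of Exd2, against 14.6 to 15.1 CPM.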

How the results depend on the processing

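Cxcl10 and Cxcr3 passed under all 8 settings that kept the 10 libraries (adjusted p 0.0016 to 0.0454 and 0.000119 to 0.0431), and Cxcl9 and Cxcl11 under none of them. With each library left out in turn, log2 fold changes ran from 0.49 to 0.70 for Cxcl10, -1.05 to -0.82 for Cxcr3, 0.68 to 1.12 for Cxcl11 and -0.20 to 0.023 for Cxcl9, which turned positive without anti-gp120 replicate 1 (0.023). The ratio of Cxcl9 ran from -0.78 to -0.60 against Cxcl10 and -1.12 to -0.81 against Cxcl11, and that of Cxcl11 to Cxcl10 from 0.17 to 0.45. Without anti-MerTK replicates 2 and 5, Cxcl10 (0.57), Cxcr3 (-0.75) and the ratios of Cxcl9 (-0.67 against Cxcl10, -0.81 against Cxcl11) no longer passed. For the ratios the p was then the smallest that 3 against 5 allow (0.0357, 0.0536 adjusted). That setting called 204 genes, 4 in the pathway lists and 1 in the marker lists, against 438, 9 and 5 with all libraries. DESeq2 called 1152 genes, limma-voom 1007, and fits without a library 70 to 654, and the cause was not tested. The fold change of Irf8 ran from -0.039 to 0.13 and that of Nup54 from -0.020 to 0.059 with a library left out. No paired analysis was possible because nothing in the labels ties a library of one group to a library of the other (replicate numbers follow the order of deposition). Depth limits the genes with a few reads per library, such as Ifng, Ncr1 and Siglech.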

Other observations

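The remaining cell type lists gave no call, against 3.22% of all tested genes. The 7 neutrophil markers summed to 65.3 to 88.1 CPM after anti-MerTK and 60.7 to 104 CPM after anti-gp120, and 0 of 3 tested passed. The 5 B cell markers summed to 17.6 to 30.5 CPM after anti-MerTK and 19.8 to 40.2 CPM after anti-gp120, and 0 of 2 tested passed. The 6 markers of fibroblasts and endothelium summed to 71.7 to 121 CPM after anti-MerTK and 85.0 to 132 CPM after anti-gp120, and 0 of 6 tested passed. The 7 markers of CCR7-high and CD209a-type dendritic cells summed to 11.1 to 65.5 CPM after anti-MerTK and 10.4 to 32.6 CPM after anti-gp120, and 0 of 5 tested passed.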
